A study of Rattus norvegicus with 22 samples.

Results

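The cytosolic heat shock chaperones and their transcription factor were followed in rat liver after inhibition of mitochondrial complex III. Of 10 genes named for this group, 9 had a probe set that carried their symbol alone in the platform annotation, out of 18166 genes measured in this way, and each had only 1 such probe set. These were the HSP70 Hspa8, the HSP110 nucleotide exchange factors Hsph1 and Hspa4, the J-domain proteins Dnaja1 and Dnajb1, the HSP90 co-chaperone Chordc1, the small heat shock proteins Hspb1 and Hspb8, and Hsf1. The probe set of Hsp90aa1 also carried the symbol of a pseudogene, so that gene was not analysed here. Hspa8 had 1 further probe set, which also carried the symbols Hspa8-ps14 and Haus8l2 and was not used for it. The members were chosen by name, with earlier results of these arrays known, so the count of those that changed is a description.

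HSP70 binds exposed hydrophobic stretches of unfolded proteins in cycles of ATP hydrolysis. J-domain proteins deliver substrates and start the hydrolysis, HSP110 proteins exchange the nucleotide, and small heat shock proteins hold unfolded proteins without using ATP. Heat shock factor 1, encoded by Hsf1, is held inactive at rest and, when unfolded proteins accumulate or temperature rises, forms trimers that bind heat shock elements, inverted repeats of GAA, in the promoters of chaperone genes.

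Livers of 22 female rats of the outbred stock Crl:CD(SD), listed as 12 weeks old, were measured on 1 array each with RNA of the median lobe. The 10 treated rats had received GSK932121A, an inhibitor of complex III of the electron transport chain, as 1 intraperitoneal dose of 50 mg/kg, and their livers are labelled as treated for 5 hours. The 12 vehicle rats received the same suspension in sterile water (mannitol, hydroxypropylmethylcellulose and sodium dodecyl sulphate) without the compound, in a volume of 10 mL/kg as in the treated rats, and the labels give no time for them. Treated animals that had little compound in plasma had been left out by the submitters, so the treated group was selected for exposure. Values are log2 signals after RMA, and the level of one gene was not set against that of another, since each has its own probes. Each array is a whole piece of liver, in which fewer cells of a type and less RNA per cell cannot be told apart. Array medians ran from 4.73 to 4.85 and 0 pairs of arrays were identical. Hepatocyte markers were bright in both groups (Alb, the albumin gene, had means of 13.41 in vehicle and 13.38 in treated arrays).

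Heat shock elements were read first in the promoters, because the members share a known regulator. RefSeq promoter windows on the GRCr8 build, from 250 bases before to 50 bases after the annotated start, were matched for 8 of the 9 measured members, all but Hsf1. The motif of 2 units (GAANNTTC or TTCNNGAA, each its own reverse complement, so both strands are covered) lay in the windows of 7 of these 8 genes and in 15.9% of 33469 windows in the table. The motif of 3 units (GAANNTTC followed by NNGAA, or TTCNNGAA followed by NNTTC, also searched on both strands and each holding overlapping motifs of 2 units) lay in 4 of the 8, namely Hspa8, Chordc1, Dnaja1 and Hsph1, and in 0.798% of windows in the table. Among 14564 measured genes with a window, members included, 2041 held the motif of 2 units and 89 that of 3 units. The window of Hspa4 held neither. A match describes the letters of the window and shows no binding. The 250 bases before the start are shown for Hspa8, the member with the largest fall, for Dnajb1, which also fell, for Hsph1, which holds the motif of 3 units and did not pass the test, and for Hspb8, the member that rose. For Dnaja1 and Chordc1, whose motifs of 3 units lie just after the start, 30 bases around them are shown. Capitals mark the matched motifs, and all run 5′ to 3′ on the strand of the gene.
Hspa8 (chr8:50080264-50080513, plus strand): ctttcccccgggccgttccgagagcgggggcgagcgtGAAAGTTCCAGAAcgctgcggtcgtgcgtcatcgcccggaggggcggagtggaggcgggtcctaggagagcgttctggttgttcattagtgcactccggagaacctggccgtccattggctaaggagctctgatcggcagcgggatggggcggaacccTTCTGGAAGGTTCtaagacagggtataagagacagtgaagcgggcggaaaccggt
Dnajb1 (chr19:41431142-41431391, minus strand): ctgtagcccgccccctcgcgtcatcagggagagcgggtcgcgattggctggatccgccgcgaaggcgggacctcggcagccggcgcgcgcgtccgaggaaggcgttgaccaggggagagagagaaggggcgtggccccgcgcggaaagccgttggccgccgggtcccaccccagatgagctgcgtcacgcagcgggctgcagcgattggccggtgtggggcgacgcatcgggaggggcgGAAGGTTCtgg
Hsph1 (chr12:10427118-10427367, plus strand): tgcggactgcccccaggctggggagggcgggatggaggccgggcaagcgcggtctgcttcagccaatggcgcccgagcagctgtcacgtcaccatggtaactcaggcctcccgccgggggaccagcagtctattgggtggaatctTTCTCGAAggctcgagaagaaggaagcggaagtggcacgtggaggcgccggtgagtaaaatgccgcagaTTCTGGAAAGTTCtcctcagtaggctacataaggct
Hspb8 (chr12:45837058-45837307, plus strand): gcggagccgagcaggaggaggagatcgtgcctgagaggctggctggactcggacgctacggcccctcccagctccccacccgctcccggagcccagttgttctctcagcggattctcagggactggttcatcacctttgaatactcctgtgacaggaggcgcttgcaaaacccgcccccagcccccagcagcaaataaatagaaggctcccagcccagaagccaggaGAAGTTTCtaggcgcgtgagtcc
Dnaja1 (chr5:60638406-60638435, plus strand): ccgggcgGAACTTTCCAGAAcgctcggtgg
Chordc1 (chr8:23650824-23650853, plus strand): gcaaccgGAACGTTCGGGAAGATTCCTGAA
Hspa8 held the motif of 3 units at 2 places, starting 213 and 55 bases before the start, Hsph1 at 1 place, 36 bases before it, and Dnaja1 at 1 place, 10 bases into the transcript. Chordc1 held 3 overlapping copies in 1 run from base 11 to base 33 of the transcript. Hspb8 and Dnajb1 held only motifs of 2 units, at 1 and 2 places.

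**Figure D1:**
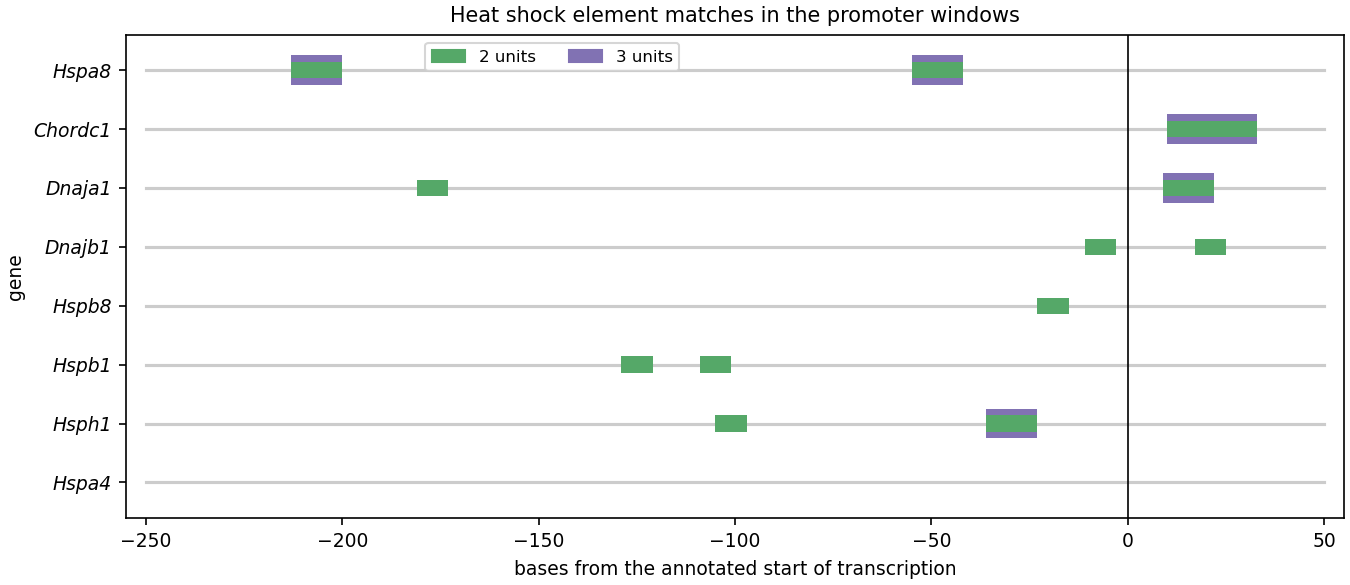
Heat shock element matches in the RefSeq windows (GRCr8) of the 8 members that have one; the x axis gives bases from the annotated start of transcription and boxes mark motifs of 2 and 3 units. Hspa8, Chordc1, Dnaja1 and Hsph1 hold the motif of 3 units and Hspa4 holds neither.

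The comparison of GSK932121A with vehicle asked whether these genes differ between the groups. Of the 9 measured members 4 fell, 1 rose and 4 did not pass at an adjusted p under 0.05 (limma, Benjamini-Hochberg over all genes). Over all 18166 genes 12.4% passed, with 7.05% falling and 5.31% rising. That balance depends on the scaling: 1280 genes fell and 964 rose as deposited, 1120 and 1048 with median centring, and 1001 and 1119 with cyclic loess. The genes that fell were Hspa8, Chordc1, Dnaja1 and Dnajb1, and the gene that rose was Hspb8. The median log2 difference of the 9 members was -0.17, beside -0.01 over all genes, and their differences ran from -0.62 to 0.53. Hsf1 itself did not pass.

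Hspa8, the constitutive cytosolic HSP70 that folds new proteins and uncoats clathrin vesicles, had log2 values with a lowest of 12.13, a median of 12.39 and a highest of 12.61 in the 12 vehicle arrays. In the 10 treated arrays the lowest was 11.40, the median 11.74 and the highest 12.10. All 10 treated arrays lay below every vehicle array, a full separation downwards that 0.281% of all genes showed. The mean fell from 12.38 ± 0.16 to 11.76 ± 0.28 (SD, n = 12 and 10), a 1.53-fold fall (log2 difference -0.62 ± 0.09 SE; limma, adjusted p = 4.05e-05). Only 101 of the genes that fell had a difference at least this large, Hspa8 included.

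Chordc1, a zinc-binding partner of HSP90, had a median of 7.59 in vehicle arrays (lowest 7.26, highest 7.92). The treated arrays had a median of 6.99 (lowest 6.76, highest 7.39), and 9 of the 10 lay below every vehicle array. The exception was GSK932121A replicate 20. The mean fell from 7.58 ± 0.21 to 7.02 ± 0.21 (SD, n = 12 and 10), or 1.48-fold (log2 difference -0.57 ± 0.09 SE; limma, adjusted p = 7.67e-05).

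The J-domain partners of HSP70 fell as well, and their groups overlapped. Whether their falls differ in size from that of Hspa8 was not tested. Dnaja1, a class A J-domain protein that is farnesylated and works with Hspa8, had a median of 10.95 in vehicle arrays (lowest 10.37, highest 11.38) and of 10.51 in treated arrays (lowest 10.31, highest 10.70). Its mean fell from 10.92 ± 0.29 to 10.49 ± 0.14 (SD, n = 12 and 10), 1.35-fold (limma, adjusted p = 0.00367), and 4 treated arrays lay below every vehicle array. The lowest vehicle array was replicate 2, and the difference without it was -0.48 (limma, adjusted p = 0.000639). Over all fits that leave out an array the difference of Dnaja1 ran from -0.48 to -0.39. The highest adjusted p among these was 0.0086, with GSK932121A replicate 14 omitted. Dnajb1, the class B J-domain protein also called HSP40, had a median of 7.56 in vehicle arrays (lowest 7.23, highest 7.88) and of 7.24 in treated arrays (lowest 6.70, highest 7.54). Its mean fell from 7.54 ± 0.18 to 7.16 ± 0.26 (SD, n = 12 and 10), 1.30-fold (limma, adjusted p = 0.00534), and 5 treated arrays lay below every vehicle array. When a change of more than 1.2-fold was required, the fall of Hspa8 passed (limma treat, adjusted p = 0.0241), while those of Chordc1 (adjusted p = 0.0583), Dnaja1 and Dnajb1 (1 each) did not.

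**Figure D2:**
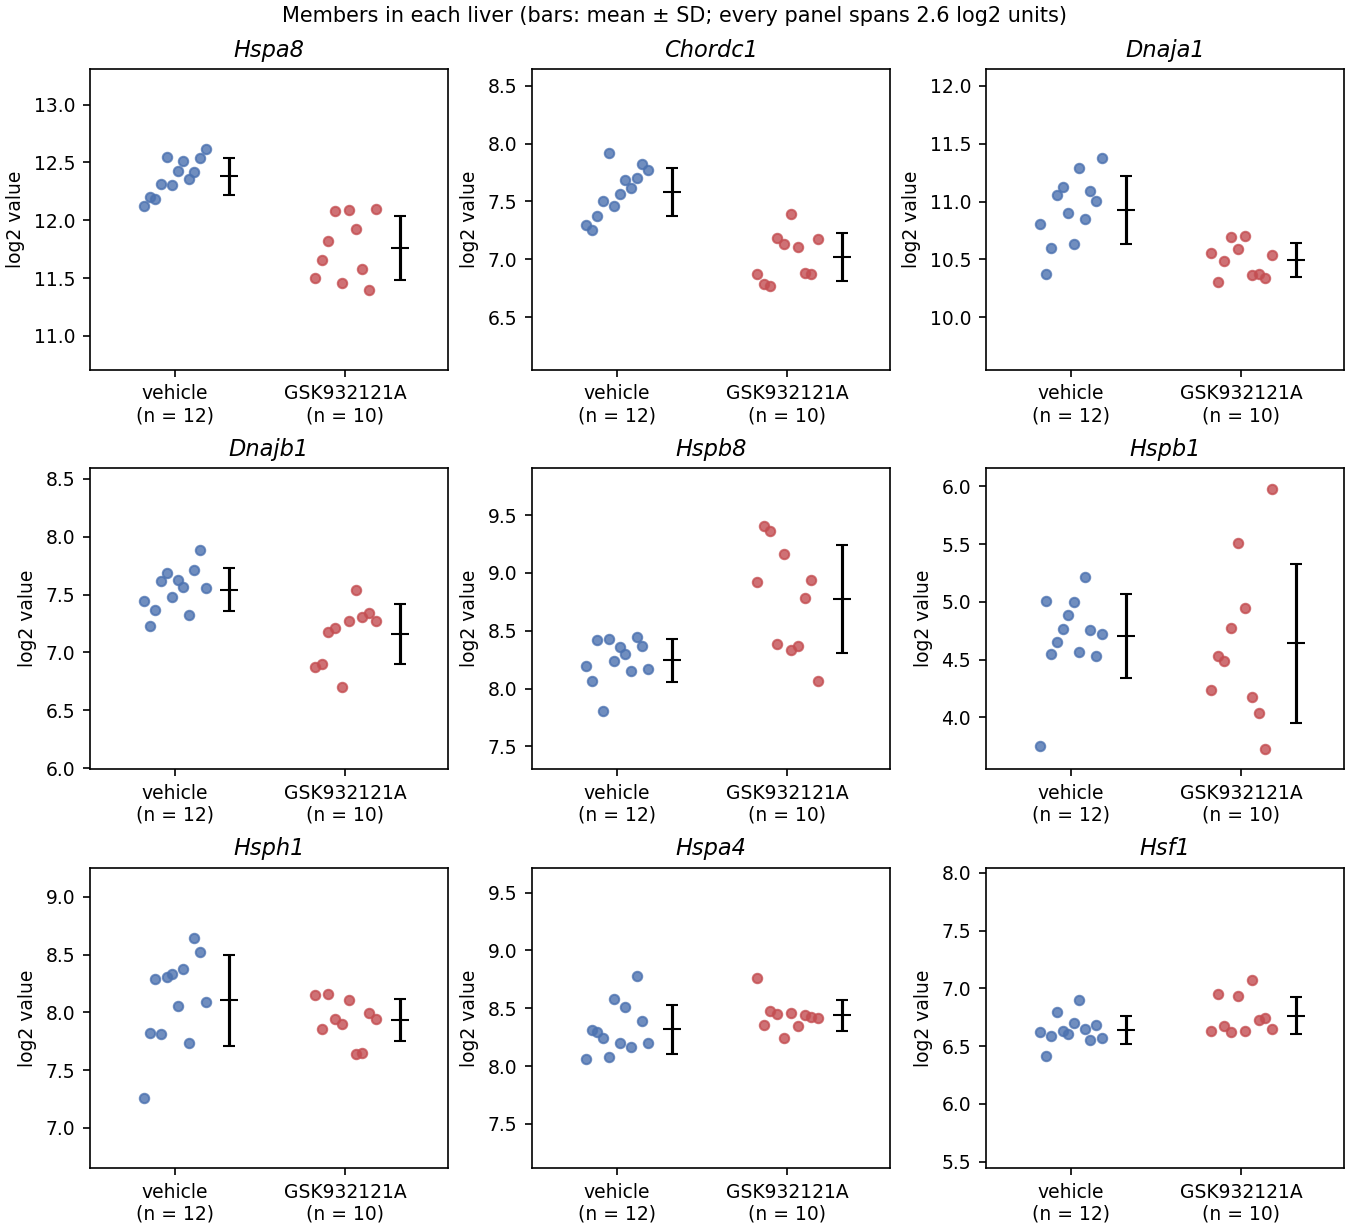
Log2 value of each measured member in each liver (points) with the group mean ± SD (bars); every panel spans the same height on the log2 axis. The groups are fully apart for Hspa8 and overlap for all other members.

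The HSP110 proteins, which share the fold of HSP70 and reload it with ATP, did not pass. Hsph1 had a median of 8.19 in vehicle arrays (lowest 7.26, highest 8.65) and of 7.94 in treated arrays (lowest 7.64, highest 8.16), so that the treated arrays lay inside the vehicle range. The difference was -0.17, with a 95% interval from -0.43 to 0.09 (limma, adjusted p = 0.458). Vehicle replicate 1 was the lowest vehicle array for Hsph1, and without it the difference was -0.245 (limma, adjusted p = 0.149). Hspa4 had a median of 8.27 in vehicle arrays (lowest 8.06, highest 8.78) and of 8.43 in treated arrays (lowest 8.24, highest 8.76), a difference of 0.12 with a 95% interval from -0.04 to 0.28 (limma, adjusted p = 0.387). GSK932121A replicate 13 was the highest treated array for Hspa4, and without it the difference was 0.08. The intervals of Hsph1 and Hspa4 leave out a fall as large as the estimate for Hspa8, but whether their differences differ from that of Hspa8 was not tested.

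Of the small heat shock proteins Hspb8 passed and Hspb1 did not, and whether their differences differ was not tested. Hspb8, which works with BAG3 in the autophagy of misfolded proteins, had a median of 8.27 in vehicle arrays (lowest 7.81, highest 8.45). In treated arrays the median was 8.85, the lowest value 8.06 and the highest 9.40. The mean rose from 8.25 ± 0.19 to 8.77 ± 0.47 (SD, n = 12 and 10), 1.44-fold (limma, adjusted p = 0.00939). The rise was uneven: 6 treated arrays, between 8.78 and 9.40, lay above every vehicle array, and the other 4, between 8.06 and 8.38, lay within the vehicle range. The call was lost with tests that do not pool the spread over genes, namely Welch's (adjusted p = 0.0533) and the rank sum test of Wilcoxon (0.0685), and it did not hold against a change of more than 1.2-fold (limma treat, 0.773). The treated arrays with the high Hspb8 values were also those with the lowest Hspa8 values, from 11.40 to 11.82, and the other 4 had Hspa8 values from 11.93 to 12.10. Because the treated values of Hspb8 lie in 2 separate ranges, the text gives no correlation of Hspb8 with Hspa8 over all treated arrays. Tested as planned over those 10 arrays, the pair did not pass adjustment by Pearson r or Spearman rho. Inside the upper range of 6 arrays, chosen after the data were seen, r was 0.64 (exact permutation test over 720 pairings, two-sided p = 0.172) and rho was 0.43 (exact p = 0.419), with r = 0.38 without the 2 farthest arrays. These 6 arrays were picked by Hspb8 itself, so these values cannot show how the genes relate over all treated arrays. The lower range of 4 arrays is too small for a correlation.

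**Figure D3:**
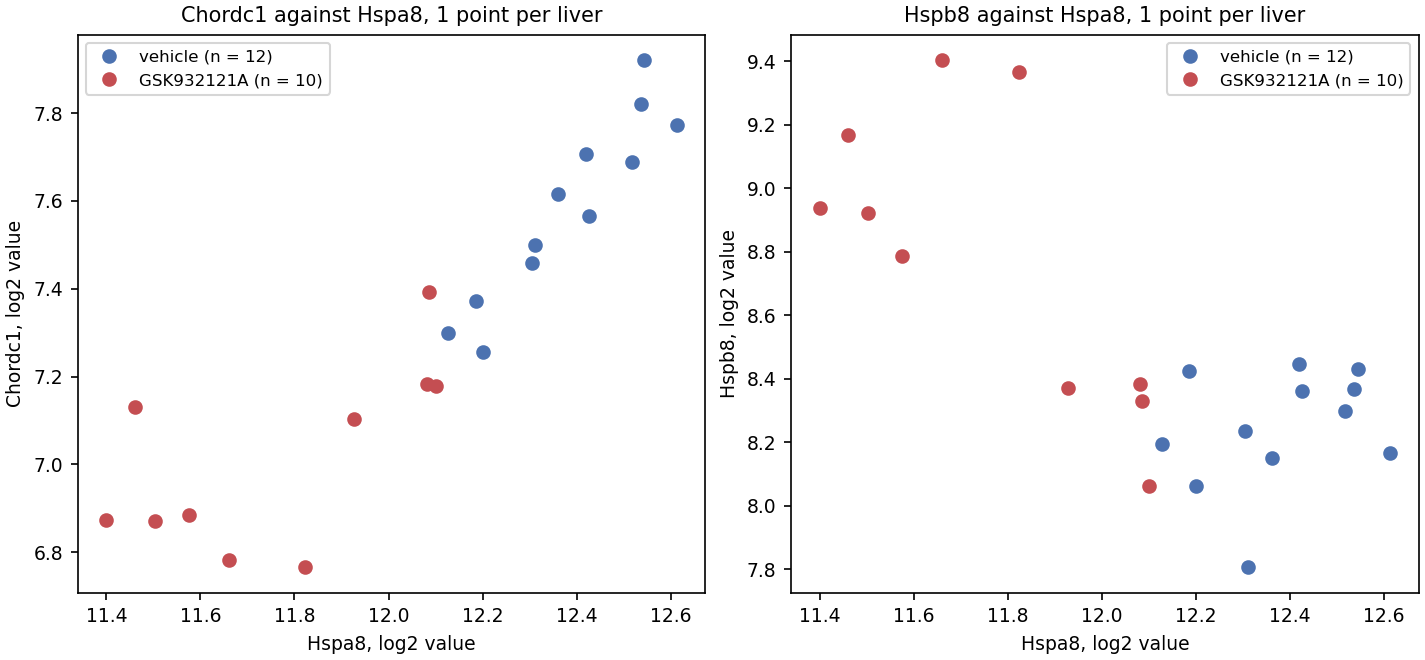
Chordc1 (left) and Hspb8 (right) against Hspa8, all as log2 values, with 1 point per liver. Vehicle livers form a rising line for Chordc1, and in treated livers the 6 highest Hspb8 values accompany the 6 lowest Hspa8 values. The correlation of Hspb8 with Hspa8 in treated livers did not pass adjustment.

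Hspb1, a small heat shock protein also known as HSP27 that binds actin, gave dim and variable values. Its median was 4.74 in vehicle arrays (lowest 3.76, highest 5.22) and 4.51 in treated arrays (lowest 3.73, highest 5.98). Its vehicle mean of 4.70 lay below every array median, so a change could be compressed towards the background. The SD was 0.69 in treated and 0.36 in vehicle arrays, and the difference of -0.06 had a 95% interval from -0.48 to 0.36 (limma, adjusted p = 0.905).

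Hsf1, the master regulator of the heat shock response, had a median of 6.62 in vehicle arrays (lowest 6.42, highest 6.90) and of 6.70 in treated arrays (lowest 6.63, highest 7.07). Its difference of 0.12 had a 95% interval from -0.01 to 0.26 and did not pass (limma, adjusted p = 0.271), and 3 treated arrays lay above every vehicle array. HSF1 is controlled largely after transcription, by binding to chaperones and by phosphorylation, which these arrays do not measure. Of 6 other measured heat shock factors and regulators, only Hsbp1, which encodes a protein that binds HSF1 trimers, passed. It fell 1.24-fold (limma, adjusted p = 0.042). This call did not hold in 12 of the fits that leave out an array (highest adjusted p 0.0855, with GSK932121A replicate 21 omitted), nor with median centring (0.0616), cyclic loess (0.119), Welch's test (0.0619), the Wilcoxon test (0.107), all probe sets tested together (0.0746) or against a change of more than 1.2-fold (1).

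Other genes of protein folding were taken from 8 companion lists written from textbook knowledge. Of 109 measured genes 1 rose, 7 fell and 101 did not pass, with a median difference of 0.00. The share that passed, 7.34%, was below the 12.4% over all genes. Among 12 other genes of the HSP70, HSP90 and small heat shock families only Hspb6, a small heat shock protein best known from muscle, passed, and it fell 1.46-fold (limma, adjusted p = 0.00214), with 7 treated arrays below every vehicle array. Against a change of more than 1.2-fold this call did not hold (limma treat, adjusted p = 0.386). Hsp90ab1, the constitutive HSP90, differed by -0.31, with a 95% interval from -0.54 to -0.07 (limma, adjusted p = 0.0857). Of the 22 fits that leave out an array only 2 called it as fallen, without vehicle replicate 4 (limma, adjusted p = 0.0177) and without vehicle replicate 1 (0.0369). Among the other settings only the filter to genes with a mean of 7 or more did so (0.0498). The highest adjusted p in a fit that leaves out an array was 0.154, with GSK932121A replicate 20 omitted. Hspa1a and Hspa1b, the inducible HSP70 genes, had no probe set with 1 symbol and were not analysed here. Markers of striated muscle, where Hspb6 and Hspb8 are abundant, were dim, with a mean over 5 genes from 4.23 to 4.53 in vehicle and from 4.20 to 4.57 in treated arrays, and limma called 0 of them, as did the Welch and Wilcoxon tests, with 0 at an unadjusted p under 0.05.

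Of 20 other cytosolic J-domain genes 3 fell and none rose, while 7.05% of all genes fell and 5.31% rose. Dnajc24, which takes part in the synthesis of diphthamide, fell 1.40-fold (limma, adjusted p = 0.00587), Dnajc12, a co-chaperone of the aromatic amino acid hydroxylases, 1.39-fold (0.0285), and Dnajb14, a protein of the endoplasmic reticulum membrane with its J-domain in the cytosol, 1.18-fold (0.0151). Against a change of more than 1.2-fold none of these 3 held (limma treat, adjusted p = 0.874 for Dnajc24 and 1 for the others). The call of Dnajc12 also did not hold in 4 fits that leave out an array (highest adjusted p 0.0511, with vehicle replicate 5 omitted), in the Wilcoxon test (0.0794) or with all probe sets (0.0558). Among 25 co-chaperones of HSP90 and HSP70, Ppid, cyclophilin 40, fell 1.25-fold (limma, adjusted p = 0.0301), Nudcd2 fell 1.22-fold (0.0244) and Fkbp5, an immunophilin induced by glucocorticoids, rose 1.74-fold (2.45e-05), with all 10 treated arrays above every vehicle array, which 0.457% of all genes showed. The call of Ppid did not hold in 4 fits that leave out an array (highest adjusted p 0.0567, with GSK932121A replicate 21 omitted), with cyclic loess (0.082), renewed quantile normalization (0.0562) or all probe sets (0.0556), and that of Nudcd2 did not hold with GSK932121A replicate 13 omitted (0.0546). Neither held against a change of more than 1.2-fold (limma treat, adjusted p of 1 each). Bag3, the partner of Hspb8, differed by -0.20, with a 95% interval from -0.41 to 0.01 (limma, adjusted p = 0.232).

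In the remaining 4 lists, which cover the TRiC and prefoldin complexes, mitochondrial chaperones, chaperones of the endoplasmic reticulum and ubiquitin-linked clearance, limma called 0 of 46 measured genes, with 5 at an unadjusted p under 0.05 and 1 called by each of the Welch and Wilcoxon tests. That gene was Dnajc11, a J-domain protein of the mitochondrial outer membrane, with a difference of 0.19 (limma, adjusted p = 0.0518). Hspd1, the mitochondrial chaperonin HSP60 and a known HSF1 target, differed by 0.01 (95% interval from -0.17 to 0.20), and Hspa5, the HSP70 of the endoplasmic reticulum, by 0.14 (95% interval from -0.05 to 0.33).

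**Figure D4:**
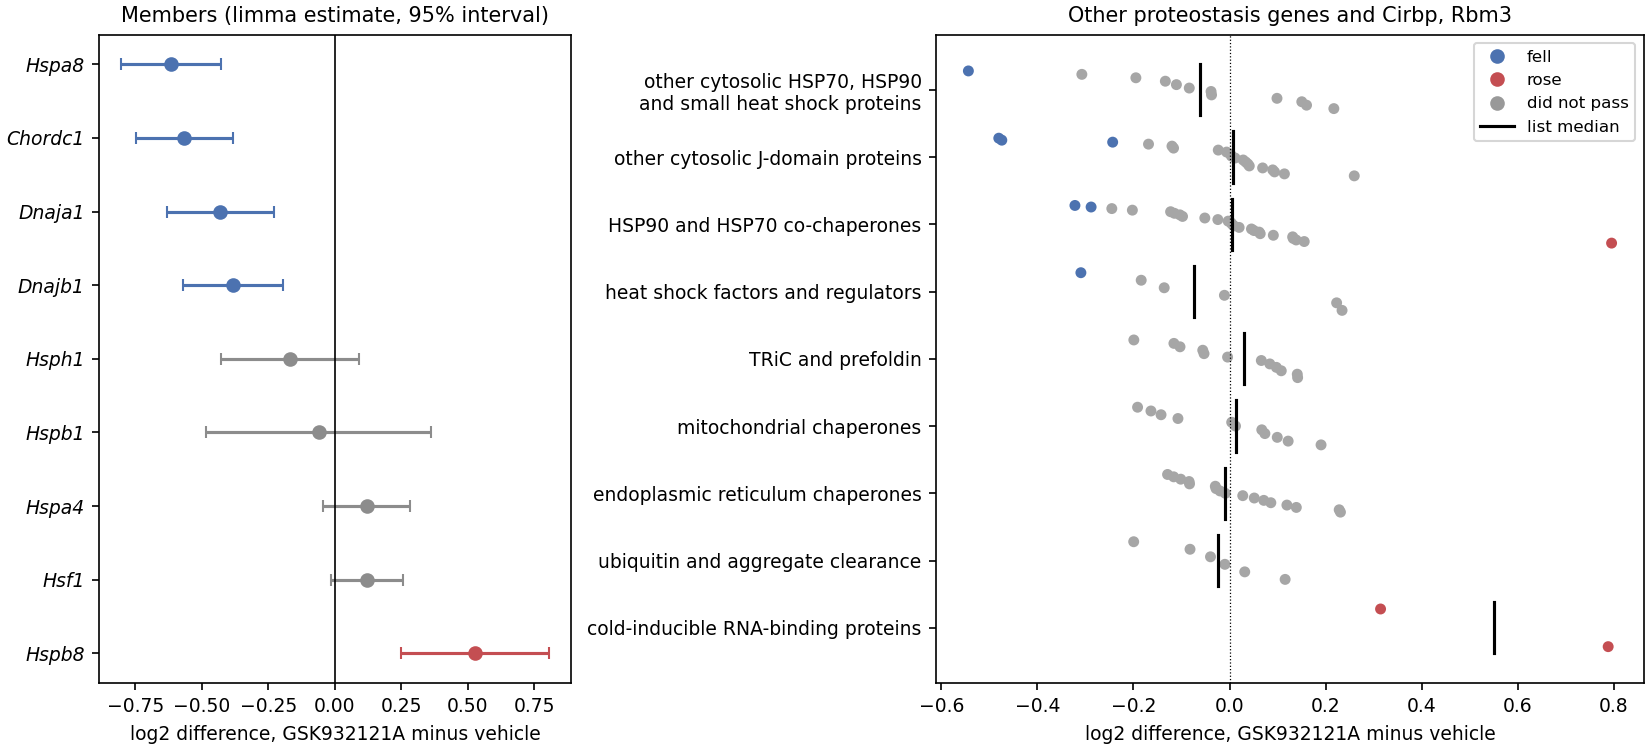
Log2 difference between GSK932121A and vehicle for the members (left, limma estimate with 95% interval) and for genes of the companion lists (right, 1 point per gene, black bars at list medians). Hspa8, Chordc1, Dnaja1 and Dnajb1 lie below 0 and Hspb8 above it, while medians of the 8 protein folding lists lie between -0.07 and 0.03.

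Transcripts of cold-inducible RNA-binding proteins, which accumulate when body temperature falls, were set beside the members, since heat shock genes respond to temperature in the opposite sense and the rats carried temperature chips whose readings were not used here. Rbm3 rose 1.73-fold (limma, adjusted p = 5.77e-06), its mean going from 6.66 ± 0.18 to 7.45 ± 0.31 (SD, n = 12 and 10), and all 10 treated arrays lay above every vehicle array. Cirbp rose 1.24-fold (adjusted p = 0.037), a call that did not hold in 12 fits that leave out an array (highest adjusted p 0.079, with GSK932121A replicate 18 omitted), in Welch's test (0.0932), in the Wilcoxon test (0.0925), with all probe sets (0.0667) or against a change of more than 1.2-fold (1). The part of temperature in the changes of the members was not tested. Of 43 measured cell type markers in 8 lists 3 rose and none fell: Cps1 of hepatocytes (1.25-fold), Cd163 of macrophages (1.28-fold) and Lyve1 of sinusoidal endothelium (1.16-fold). None of these 3 held against a change of more than 1.2-fold (limma treat, adjusted p of 1 each). The share of markers that passed, 6.98%, was below the 12.4% over all genes, of which 5.31% rose. The mean of the 6 hepatocyte markers ran from 12.20 to 12.37 in vehicle and from 12.30 to 12.45 in treated arrays, and their part in the falls of the members was not tested.

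From animal to animal, most pairs of members were positively correlated in vehicle livers. Of 36 pairs of members in the 12 vehicle arrays, 31 had a positive Pearson correlation, with a median r of 0.31. In the 10 treated arrays 15 pairs were positive and 21 negative, with a median r of -0.05. Of 72 correlations over both groups only 1 passed adjustment, that of Hspa8 with Chordc1 in vehicle arrays (r = 0.94, permutation p = 2e-05, adjusted p = 0.00144; Spearman rho = 0.92, permutation p = 3e-05, adjusted p = 0.00216). Without the 2 arrays farthest from the median of Hspa8, r was 0.94. In treated arrays the same pair had r = 0.64 (permutation p = 0.0487, adjusted p = 0.221) and rho = 0.54 (permutation p = 0.113, adjusted p = 0.369), and r fell to 0.40 without the 2 farthest arrays. None of the treated pairs passed by either measure, and 6 had an unadjusted permutation p under 0.05 by Pearson r, beside 10 of the vehicle pairs. These counts were not set against pairs of other genes. Whether correlations differ between the groups was not tested.

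**Figure D5:**
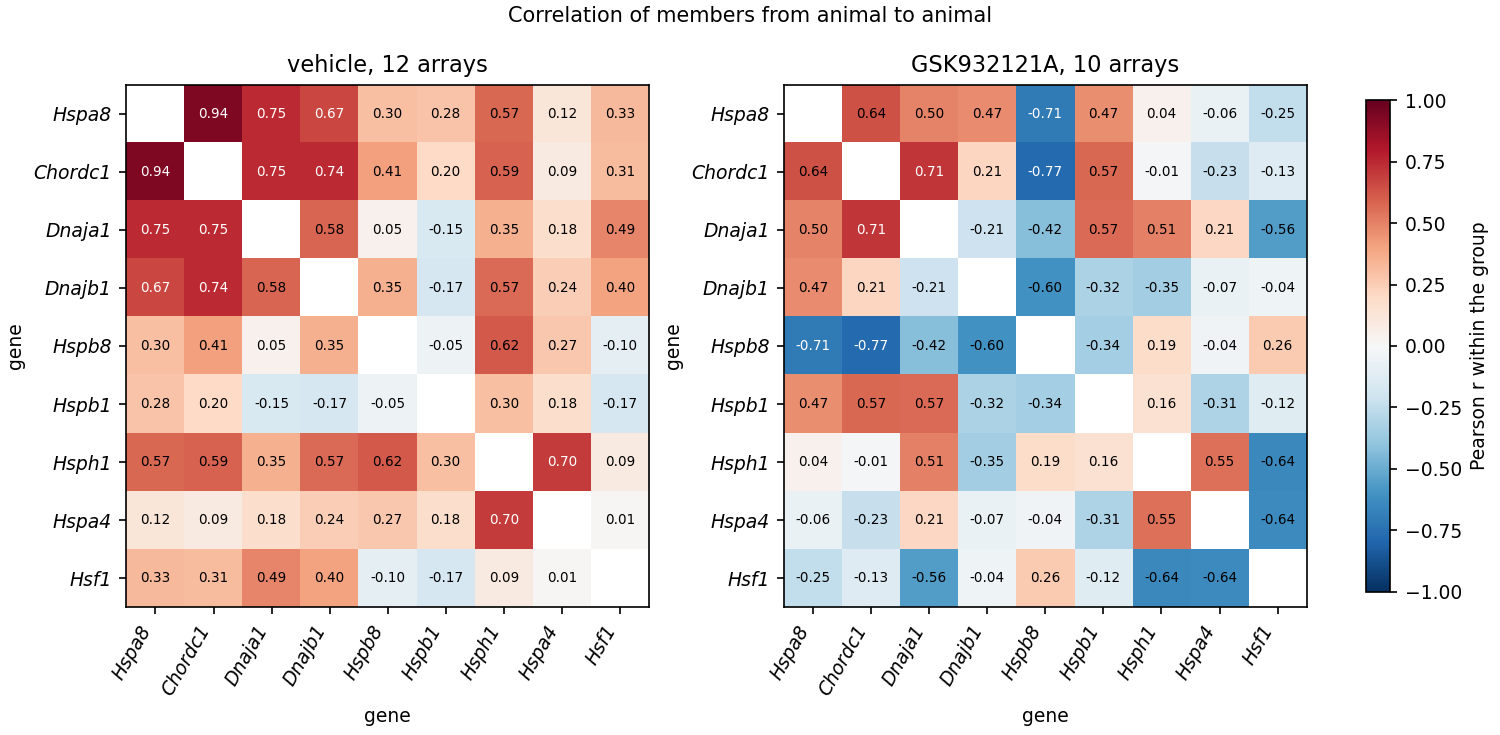
Pearson r of each pair of members within the 12 vehicle arrays (left) and the 10 treated arrays (right). The block of Hspa8, Chordc1, Dnaja1 and Dnajb1 runs from 0.58 to 0.94 in vehicle livers. The treated values of Hspb8 lie in separate ranges, so no relation is read from its r values in treated livers. None of the treated pairs passed adjustment, and of the vehicle pairs only Hspa8 with Chordc1 did.

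In vehicle arrays Dnaja1 and Dnajb1 had r of 0.75 and 0.67 to Hspa8 and 0.75 and 0.74 to Chordc1, none of which passed (permutation test, adjusted p from 0.105 to 0.184). Their Spearman rho lay between 0.64 and 0.78 (adjusted p from 0.0952 to 0.18), and r lay between 0.64 and 0.78 without the 2 farthest arrays. Dnaja1 and Dnajb1 had r = 0.58 to each other (permutation p = 0.0471, adjusted p = 0.221; rho = 0.55, adjusted p = 0.255), and r was 0.48 without the 2 farthest arrays. Hsph1 had its highest vehicle correlation with Hspa4, the other HSP110 (r = 0.70, permutation p = 0.0107, adjusted p = 0.145; rho = 0.75, adjusted p = 0.0952), with r = 0.62 without the 2 farthest arrays. Outside the members and companion lists, 6 genes were named for the likeness of their values to the mean of the 8 chaperone members, taken over 22 arrays after each group mean was subtracted and ranked among 17212 genes. That mean stands for some members more than others: the r of a member with the mean of the other chaperones was 0.699 for Hsph1, 0.659 for Chordc1, 0.572 for Hspa8 and 0.567 for Dnaja1. It was 0.254 for Hspa4, 0.248 for Dnajb1, 0.137 for Hspb1 and -0.275 for Hspb8. G0s2, an inhibitor of adipose triglyceride lipase, had the highest r of 0.82 (0.89 within vehicle and 0.71 within treated arrays), and it fell 1.74-fold after treatment (limma, adjusted p = 0.00344). Fam162a (r = 0.77), Kpna2, an importin (0.77), Kctd18 (0.76), the small GTPase Rap1a (0.75) and the N-terminal acetyltransferase Naa50 (0.74) followed, and none of these 5 passed the comparison of the groups. These values describe arrays that share 1 normalisation, and they carry no test.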

How the data were processed

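Liver RNA of 22 rats was measured on 22 Affymetrix arrays. The values deposited are log2 signals made by RMA, per the submitters' processing notes. RMA corrects background, normalises between arrays and summarises probe sets. The software behind it is not given in the sources used here. Normalising between arrays removes shifts shared by all genes. Precision is limited by how many arrays there are.

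Of 36685 probe sets 18511 had 1 gene symbol, 575 had several and 17599 had none. Entrez identifiers of 18394 matched the RefSeq gene table and 0 symbols changed. The probe set with the highest mean stood for a gene, which left 18166 genes. Groups and replicate numbers came from the labels, which give no batch or date. The groups share no numbers. Where the labels do not say more, p-values measure the spread between these animals.

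Genes were fitted on group alone in limma 3.58.1 (R 4.3.3) with Benjamini-Hochberg adjustment over all genes, and passed at an adjusted p under 0.05. Folds are back-transformed log2 differences. On simulated data for the 18166 genes of this comparison the fit recovered 29.9%, 89.6% and 100% of genes changed 1.2-fold, 1.5-fold and 2-fold, and called 10 unchanged genes. The simulation drew genes independently, with equal spread in both groups. It changed 67, 67 and 66 genes at these folds, far fewer than were called here, so recovery in these data can differ. Correlations used two-sided permutation tests of 100000 resamples and adjustment over 72 tests (Python 3.11.15, numpy 2.4.6, pandas 2.3.3, scipy 1.17.1, matplotlib 3.10.9). Members and lists were chosen with earlier results of these data known. Text names every member, list members that passed (up to 4 a list), a short fixed set (Cirbp, Rbm3, Hspa1a, Hspa1b, Hsp90ab1, Bag3, Hspa5 and Hspd1) and the 6 genes of highest likeness. Alb and Dnajc11 were added after their values were seen.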

Additional observations from a re-analysis of the deposited data

Results flagged for a closer look

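Among 26 genes named in the text, 1 had a treated array far from the rest, measured as the gap to its nearest neighbour over the range of the 10 treated arrays. For Hspa4, the HSP110 nucleotide exchange factor, GSK932121A replicate 13 stood at 8.77 on the log2 scale, and the other treated arrays lay between 8.24 and 8.48. Chance flags about 1 group in 20 in this way. The check was run on the 10 treated arrays alone, and the 12 vehicle arrays were not checked in this way.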

How the results depend on the processing

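The count of members that fell was 4 and that of members that rose was 1 in each of the 22 fits that left out an array, and both counts were the same under median centring, renewed quantile normalization, cyclic loess, filters at mean log2 values of 5 and 7, the mean of the probe sets of a gene, array weights, a robust fit with an intensity trend and all probe sets. Tested against a fold change of 1.2, 1 member fell and 0 rose, and with the Welch and Wilcoxon tests 4 fell and 0 rose. Over all genes, 1280 fell and 964 rose. Leaving out an array moved these counts between 1012 and 1361 and between 842 and 1025. Among genes with a mean of 7 or more 726 fell and 491 rose, since fewer genes were tested, and against a fold of 1.2 83 fell and 230 rose. Hspb1 changed sign without GSK932121A replicate 22 (0.0066) and without replicate 23 (0.0411), and over all arrays left out in turn its difference ran from -0.21 to 0.04, with no call. Of the other HSP70, HSP90 and small heat shock genes 2 were called with median centring (Hspb7 in addition), of heat shock factors and regulators 0 with median centring and with cyclic loess, and of mitochondrial chaperones 1 (Dnajc11) with median centring, cyclic loess and the filter at 5. Dnajc11 was also called with renewed quantile normalization and in 5 fits that leave out an array, and Hspb7 by Welch's test and in 4 such fits. The cause of these shifts was not tested. Of vehicle pairs of members, 1 passed with median centring, cyclic loess and Spearman rho, and 1 to 2 passed when an array was left out (2 without vehicle replicate 7), while the count for treated pairs was 0 throughout. The motif count was 7 with 2 units and 4 with 3 units. In the 250 bases before the start alone it was 6 with 2 units and 2 with 3 units. Leave-out correlations and that window were added after the data were seen. Probe sets as dim as that of Hspb1 limit what can be seen of it. No paired analysis was possible because the groups share no replicate numbers.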

Other observations

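Genes whose promoter window holds the motif of 3 units, whatever their function, were counted after the data were seen. Without the members there were 85 such genes, of which 4 rose and 6 fell (limma, adjusted p under 0.05). The share that fell, 7.06%, lay beside 7.37% of 14564 measured genes with any promoter window, and their median difference was 0.01. The 6 that fell were Osgin1, an oxidative stress-induced growth inhibitor (2.90-fold), Trim25, a ubiquitin ligase of antiviral signalling (1.88-fold), Lcmt1 (1.19-fold), Ube2l3, a ubiquitin-conjugating enzyme (1.17-fold), Entpd5 (1.22-fold) and Htatip2 (1.17-fold). Those that rose were C7h12orf42 (2.23-fold), Spata6l (1.45-fold), Sytl5 (1.43-fold) and Wdr46 (1.22-fold). All are named because they make up these counts.

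Each member was also set against Rbm3 and Cirbp within each group, in 36 correlations added after the data were seen, and 0 passed adjustment by Pearson r or Spearman rho, with 3 at an unadjusted p under 0.05 by Pearson r. In treated arrays Rbm3 and Hspa8 had r = -0.81 (permutation p = 0.00504, adjusted p = 0.181) and rho = -0.85 (permutation p = 0.00292, adjusted p = 0.105), and r was -0.75 without the 2 arrays farthest from the median of Rbm3. Rbm3 and Dnajb1 had r = -0.71 (permutation p = 0.0215, adjusted p = 0.258) and rho = -0.55 (permutation p = 0.104, adjusted p = 0.627), and r was -0.72 without the 2 farthest arrays. The remaining value under 0.05 was that with Hspb8, whose treated values lie in separate ranges. Cirbp and Hspa8 had r = -0.01 in treated arrays (permutation p = 0.967, adjusted p = 0.967). Without the 2 arrays farthest from the median of Cirbp, that r was -0.75. In vehicle arrays Rbm3 and Hspa8 had r = -0.28 (permutation p = 0.379, adjusted p = 0.865). No pair with Cirbp, and none with Rbm3 in vehicle arrays, had an unadjusted p under 0.05 by Pearson r.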
